A study of Mus musculus with 4 samples.

Results

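A set of 10 genes of the cellular response to low oxygen was followed in RNA from mouse retina at E13.5 (E, embryonic day). They are the hypoxia-inducible factor (HIF) subunits Hif1a and Epas1, the oxygen-sensing hydroxylases Egln1 and Egln3, and the hypoxia targets Bnip3, Bnip3l, Ddit4, P4ha1, Ankrd37 and Adm, which are not enzymes of sugar metabolism. They were chosen by gene symbol, with their TPM and fold changes in these 4 libraries already known, and are 10 of the 25239 gene IDs in the tables, each on 1 row in every library. The series compared 2 control libraries with 2 libraries labelled Isl1cKO, a conditional knockout of the LIM-homeodomain gene Isl1, to describe the transcriptome after its loss. Neither the Cre driver, the floxed allele, the genotype of the controls, the strain nor the number of animals per library is given in the sources used here. The replicates are separate libraries, and nothing says that they came from separate litters, so every spread and p-value below reflects differences between libraries. These may be technical in part, and in the controls wholly so.

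In cells with enough oxygen, the EGLN prolyl hydroxylases mark HIF alpha subunits, the von Hippel-Lindau protein Vhl binds the marked subunits, and they are degraded. When oxygen is short, the subunits persist, pair with Arnt, and bind DNA at hypoxia response elements, where they raise transcription of genes for glycolysis, mitophagy, matrix formation and vessel growth. HIF1A activity is thus set largely at the protein level, and its mRNA level is not a readout of it. The embryonic retina is avascular at this age, is fed by the hyaloid and choroidal vessels, and depends strongly on glycolysis.

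The core of the hypoxia response element is ACGTG or GCGTG, and the promoters of the genes were searched for it as a description. RefSeq promoter windows of assembly GRCm38.p6, reaching from 250 bases before to 50 bases after a start site, were found for 8 of the 10 genes. Epas1 and Bnip3l were not matched. ACGTG was present on either strand in 7 of the 8 windows, against 19.6% of the 32851 windows of that length in the table. GCGTG was present in 6 of the 8, against 32.4% of all windows, and both were present in 5 of the 8, against 8.24%. Each core contains a CG dinucleotide, and the 8 windows were richer in CG, with a median of 25.5 such dinucleotides against 7 over all windows. Most of these genes were also chosen as hypoxia targets, so the presence of cores is not an independent finding. A match to these letters is not evidence of binding. The stretches of 5 of the genes are shown: Bnip3, Ddit4, P4ha1 and Egln3, whose levels differed most between libraries among the tested genes, and Ankrd37, whose level hardly differed. Each runs 5′ to 3′ on the strand of the gene from 250 bases before the start site towards it, stops before bases that GENCODE M21 annotates as exon, and has every ACGTG and GCGTG core, on either strand, in capitals. On the opposite strand the cores read CACGT and CACGC, and CACGTG holds the first core on both strands.
Bnip3, chr7:138909520-138909756, minus strand: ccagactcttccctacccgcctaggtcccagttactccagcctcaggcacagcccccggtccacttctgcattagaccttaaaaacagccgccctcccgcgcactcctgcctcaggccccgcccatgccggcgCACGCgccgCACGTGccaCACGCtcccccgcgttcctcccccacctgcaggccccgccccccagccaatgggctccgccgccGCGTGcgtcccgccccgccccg
Ddit4, chr10:59951835-59952020, minus strand: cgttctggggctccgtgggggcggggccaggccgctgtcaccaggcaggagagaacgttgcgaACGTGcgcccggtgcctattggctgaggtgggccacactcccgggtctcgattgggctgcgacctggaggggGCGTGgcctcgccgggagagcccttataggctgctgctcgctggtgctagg
P4ha1, chr10:59323046-59323295, plus strand: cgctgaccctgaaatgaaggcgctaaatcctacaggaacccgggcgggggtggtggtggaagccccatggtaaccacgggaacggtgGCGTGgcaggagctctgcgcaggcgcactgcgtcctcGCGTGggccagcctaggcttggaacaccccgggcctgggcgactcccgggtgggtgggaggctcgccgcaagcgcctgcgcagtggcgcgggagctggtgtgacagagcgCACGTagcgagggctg
Egln3, chr12:54203875-54204124, minus strand: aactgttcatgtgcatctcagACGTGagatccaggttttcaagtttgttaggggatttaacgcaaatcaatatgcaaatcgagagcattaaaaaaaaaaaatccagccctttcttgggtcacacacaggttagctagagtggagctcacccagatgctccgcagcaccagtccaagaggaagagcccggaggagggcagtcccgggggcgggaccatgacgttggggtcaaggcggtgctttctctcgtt
Ankrd37, chr8:45999868-46000100, minus strand: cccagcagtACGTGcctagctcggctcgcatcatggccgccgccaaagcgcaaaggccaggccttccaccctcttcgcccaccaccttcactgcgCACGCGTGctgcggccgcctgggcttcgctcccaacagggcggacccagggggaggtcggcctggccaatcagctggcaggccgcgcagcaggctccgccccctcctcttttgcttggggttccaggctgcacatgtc
Bnip3 held 5 cores, 4 of them between positions -117 and -95 from the start site, and Egln3 held 1, at -229. In Ankrd37 a core on each strand overlapped in CACGCGTG, and a second ACGTG, at -6, lies beyond the printed stretch. The windows of Egln1, Hif1a and Adm held 2, 3 and 2 cores. Whether the number of cores went with the values given below was not tested over the 8 windows, and single genes pointed both ways. Bnip3, with the most cores, had the widest ratio of highest to lowest library among the tested genes. Egln3, with 1 core, differed more between libraries than Ankrd37, with 4, or Hif1a, with 3. For Hif1a the RefSeq start site lies 6543 bases inside the position given in the deposited table, while for the other 7 genes both starts coincide.

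**Figure D1:**
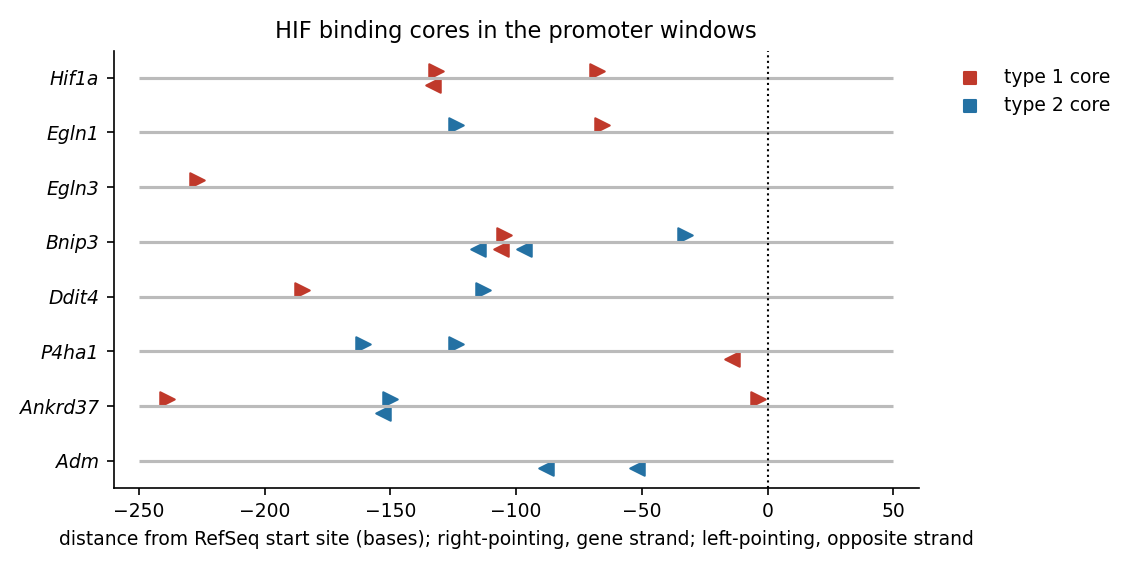
HIF binding cores in the promoter windows of 8 genes, by distance in bases from the RefSeq start site (horizontal axis). Red marks ACGTG and blue GCGTG, and a triangle pointing left lies on the strand opposite to the gene. Bnip3 holds 5 cores and Egln3 holds 1.

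The libraries were examined before the genes were compared. Values are TPM, transcript abundances scaled to transcript length and to a fixed sum per library, so that levels of different genes can be set side by side. Aligned sequence ranged from 12.6 to 14.3 gigabases per library, and between 13554 and 13932 genes per library stood at 1 TPM or more. Isl1 itself was at 242 and 201 TPM in the controls (replicates 1 and 2, an order kept throughout), against 321 and 223 TPM in those labelled Isl1cKO. It was not lower where the labels say it was deleted, so the latter are called knockout-labelled, and directions rest on the labels. Isl1cKO replicate 2 stood apart: its Xist level was 0.501 TPM against 209 to 287 TPM in the other 3, and its correlations with the controls (Pearson's r across tested genes of 0.978 and 0.981) were the lowest of all pairs. Xist is made in female cells, so Isl1cKO replicates 1 and 2 were not from the same animals. The part of sex in the differences below was not tested. The 8 retinal markers were present throughout, with Rax, a transcription factor of the eye field and retinal progenitors, between 405 and 477 TPM in any library. Of the 13984 genes with at least 1 TPM in at least 2 libraries, limma called 69 at an adjusted p-value under 0.05. Because the 10 genes were proposed with the values of this contrast known, their differences are given as a description, with no test.

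Of the 10 genes, 8 reached 1 TPM in at least 2 libraries, and Epas1 and Adm did not. In 6 of the 8, both knockout-labelled libraries lay above both controls, a pattern found in 14.9% of all tested genes. These were Bnip3, Ddit4, Egln3, P4ha1, Bnip3l and Ankrd37. Hif1a and Egln1 overlapped between the groups. None of the 8 was among the genes limma called, where 0.493% of all tested genes were. Nothing is read from these shares, since the same contrast was in view when the genes were chosen.

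**Figure D2:**
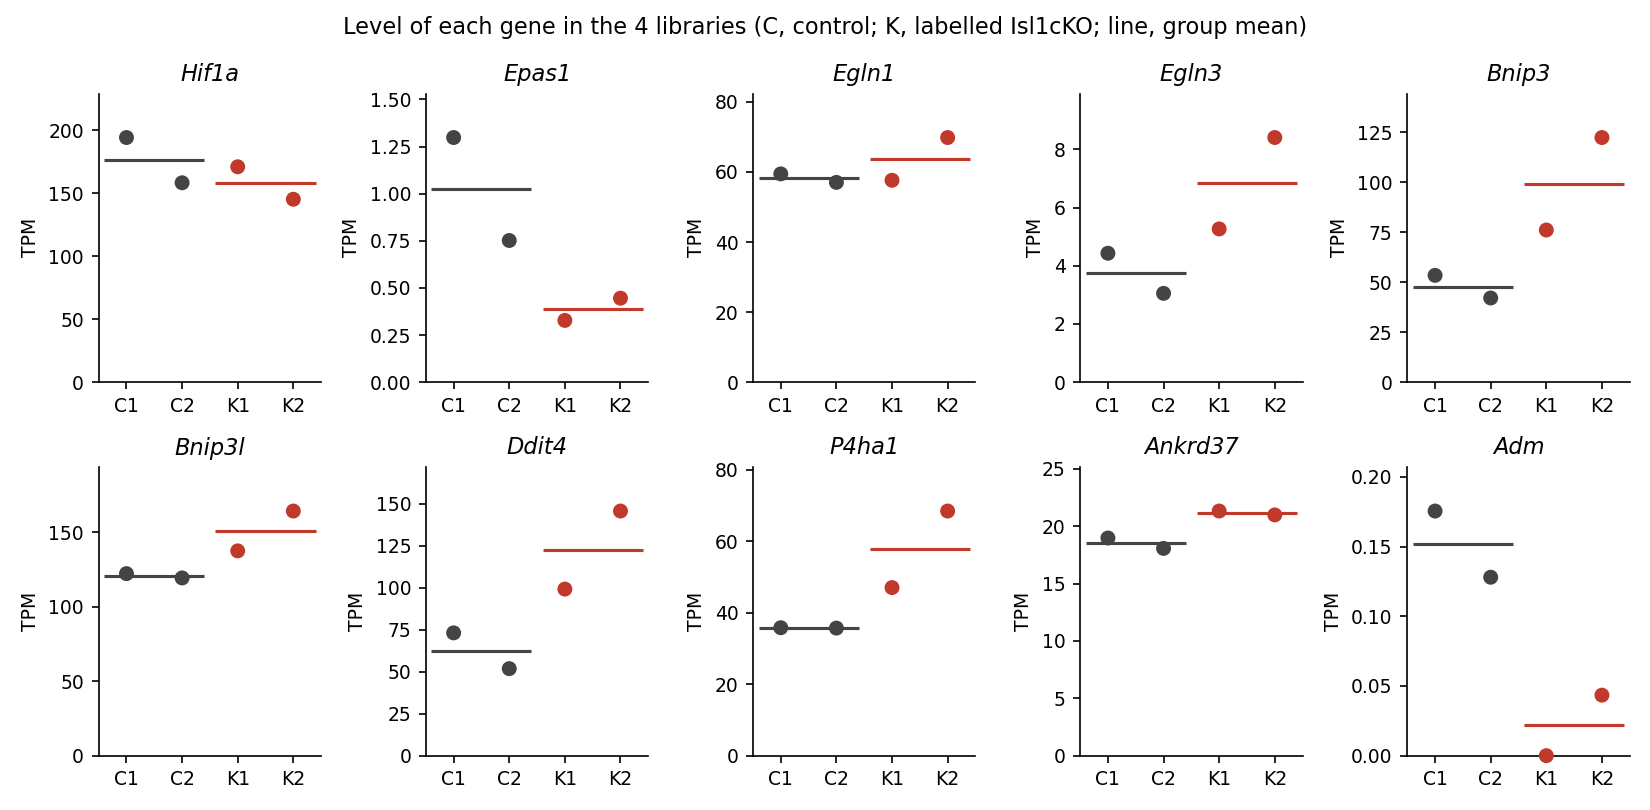
TPM of each of the 10 genes (vertical axes from 0, scaled per gene) in control replicates 1 and 2 (C1, C2, grey) and Isl1cKO replicates 1 and 2 (K1, K2, red), with lines at the group means. Bnip3, Ddit4, Egln3, P4ha1 and Bnip3l are highest in K2 and lowest in C2, whereas Hif1a is lowest in K2.

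Positions below are those of the deposited tables, on mm10. Among the factors, Hif1a (chromosome 12, 73901324 to 73947554, plus strand), the alpha subunit made by most cells, had the highest mean of the 10 genes over the 4 libraries, although in Isl1cKO replicate 2 it lay below Bnip3l and Ddit4. The controls held 194 and 158 TPM of it and the knockout-labelled libraries 171 and 145 TPM. The groups overlapped, and the difference of means, 176 ± 25.4 against 158 ± 18.2 TPM (SD, n = 2 each), was smaller than either SD. The log2 fold change of knockout-labelled against control, on the log2(TPM + 1) scale used throughout, was -0.15 (SE 0.15). It was -0.01 without control replicate 1, -0.30 without control replicate 2, -0.27 without Isl1cKO replicate 1 and -0.04 without Isl1cKO replicate 2, so its size rests on single libraries.

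Epas1 (chromosome 17, 86753864 to 86833410, plus strand), the alpha subunit typical of endothelium, was low everywhere. It stood at 1.30 and 0.752 TPM in the controls, against 0.328 and 0.446 TPM in the knockout-labelled libraries. All values but that of control replicate 1 lay below 1 TPM, and both Isl1cKO values lay below both control values. Hif1a exceeded Epas1 by 150-fold in control replicate 1 and by 522-fold in Isl1cKO replicate 1, the extremes of the 4 libraries. The sum over 10 endothelial markers was 94.7 and 73.2 TPM in the controls, against 72.3 and 69.0 TPM in the knockout-labelled libraries, with control replicate 2 and Isl1cKO replicate 1 nearly equal. In 8 of the 10 markers both knockout-labelled libraries lay below both controls. That pattern was found in 30.0% of all tested genes, but most of these markers were too low to be tested, so the shares are not alike. Among those tested, Kdr lay below by only 0.0073 on the log2 scale and Cldn5 by 0.13. Pecam1 overlapped, and Egfl7 ran the other way, at 7.04 and 7.98 TPM in the controls, against 9.0 and 9.38 TPM in the knockout-labelled libraries. Most of that sum was Kdr (55.5 to 69.0 TPM), and 3 of the 10 were tested. The endothelial cadherin Cdh5 stood at 2.55 and 0.357 TPM in control, against 0.211 TPM in Isl1cKO replicate 1, and Cdh5, Tie1 and Emcn were listed at 0 in Isl1cKO replicate 2. The part of these cells in the Epas1 values was not tested, and in bulk tissue fewer cells of a type and less RNA per cell cannot be told apart.

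The hydroxylases Egln1 and Egln3 had unlike values. Egln1 (chromosome 8, 124908587 to 124949254, minus strand), the main oxygen sensor that marks HIF alpha subunits, stood at 59.5 and 57.0 TPM in the controls, against 57.6 and 69.8 TPM in the knockout-labelled libraries. Isl1cKO replicate 1 lay between the controls and only Isl1cKO replicate 2 lay above them, so the groups overlapped. Egln3 (chromosome 12, 54178981 to 54203874, minus strand), a hydroxylase that is itself strongly induced by HIF, stood at 4.43 and 3.05 TPM in the controls, against 5.27 and 8.41 TPM in the knockout-labelled libraries. Its groups did not overlap, with means of 3.74 ± 0.975 and 6.84 ± 2.22 TPM (SD, n = 2 each) and a log2 fold change of 0.71 (SE 0.25). Egln1 was 18.7 times as abundant as Egln3 in control replicate 2 and 8.30 times in Isl1cKO replicate 2.

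The mitophagy receptors Bnip3 and Bnip3l sit on the outer mitochondrial membrane, where they recruit the autophagy machinery. Bnip3 (chromosome 7, 138890836 to 138909506, minus strand) measured 53.4 and 42.1 TPM in the controls, against 76.1 and 122 TPM in the knockout-labelled libraries. As a ratio of the highest to the lowest library this was the widest among the 8 tested genes, with Isl1cKO replicate 2 at 2.91 times control replicate 2. The means were 47.7 ± 8.0 and 99.2 ± 32.7 TPM (SD, n = 2 each), and the log2 fold change of 1.01 (SE 0.26) was the largest of the 10 genes. Bnip3l (chromosome 14, 66985240 to 67008877, minus strand), also known as Nix and needed for clearing mitochondria from maturing red cells, stood at 122 and 119 TPM in the controls, against 138 and 164 TPM in the knockout-labelled libraries. Its order of libraries was that of Bnip3 but its span was narrower, with a log2 fold change of 0.31 (SE 0.11). Bnip3l was 2.84 times as abundant as Bnip3 in control replicate 2 and 1.34 times in Isl1cKO replicate 2. Red cell markers ran the other way: 12 of them summed to 2906 and 4172 TPM in the controls and to 1421 and 207 TPM in Isl1cKO replicates 1 and 2. Of these, 10 were tested and limma called none (0.493% over all tested genes).

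Ddit4 (chromosome 10, 59949675 to 59951770, minus strand), also known as REDD1, restrains the growth kinase complex mTORC1 under hypoxia and other stress. It stood at 73.1 and 51.8 TPM in the controls, against 99.2 and 146 TPM in the knockout-labelled libraries. The groups did not overlap, with means of 62.4 ± 15.1 and 122 ± 32.9 TPM (SD, n = 2 each) and a log2 fold change of 0.95 (SE 0.26). P4ha1 (chromosome 10, 59323296 to 59373304, plus strand) encodes the catalytic subunit of the hydroxylase that stabilises collagen chains, an enzyme distinct from the EGLN sensors. It stood at 35.8 and 35.7 TPM in the controls, which were almost equal, against 47.0 and 68.5 TPM in the knockout-labelled libraries. The log2 fold change was 0.65 (SE 0.19).

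Ankrd37 (chromosome 8, 45996908 to 45999850, minus strand), a small ankyrin-repeat protein whose gene is a HIF target, stood at 19.0 and 18.1 TPM in the controls, against 21.3 and 21.0 TPM in the knockout-labelled libraries. The groups did not overlap, but the log2 fold change was only 0.18 (SE 0.08), and it was the 1 gene of the 6 in which Isl1cKO replicate 1 was above replicate 2. It is also the 1 gene of the 10 with an overlapping neighbour, Ufsp2, on the opposite strand. The library kit was strand-specific, but whether reads were assigned by strand is not given in the sources used here. Adm (chromosome 7, 110627657 to 110629820, plus strand), which encodes the vasodilator peptide adrenomedullin, stood at 0.176 and 0.128 TPM in the controls, was listed at 0 in Isl1cKO replicate 1 and stood at 0.0434 TPM in Isl1cKO replicate 2. With no library above 0.176 TPM, no difference is read.

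Ordered by mean level over the 4 libraries, the genes ran Hif1a (167 TPM), Bnip3l (136), Ddit4 (92.4), Bnip3 (73.5), Egln1 (61.0), P4ha1 (46.7), Ankrd37 (19.8), Egln3 (5.29), Epas1 (0.706) and Adm (0.0867). From Hif1a down to P4ha1 the ranges of neighbouring genes overlapped over the 4 libraries. From P4ha1 downwards no neighbouring ranges did. Within the controls, Ddit4 and Bnip3 were the only neighbours whose ranges overlapped. In the knockout-labelled libraries, Bnip3 lay above Egln1 in both, whereas in both controls it lay below.

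The libraries were then ranked for each gene. Bnip3, Ddit4, Egln3, P4ha1 and Bnip3l all ranked in the same order, from low to high: control replicate 2, control replicate 1, Isl1cKO replicate 1, Isl1cKO replicate 2. Exactly this order was found in 3.91% of all tested genes. Isl1cKO replicate 2 was the highest library for 6 of the 8 tested genes, the 5 above and Egln1, and for 21.0% of all tested genes. Control replicate 2 was the lowest for 7 of the 8, and for 15.4% of all tested genes. Hif1a was the 1 gene of the 8 that was lowest in Isl1cKO replicate 2, as 46.2% of all tested genes were. The steps were uneven: over the 8 genes the median centred log2(TPM + 1) was -0.14 and -0.25 in control replicates 1 and 2, 0.06 in Isl1cKO replicate 1 and 0.44 in Isl1cKO replicate 2.

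**Figure D3:**
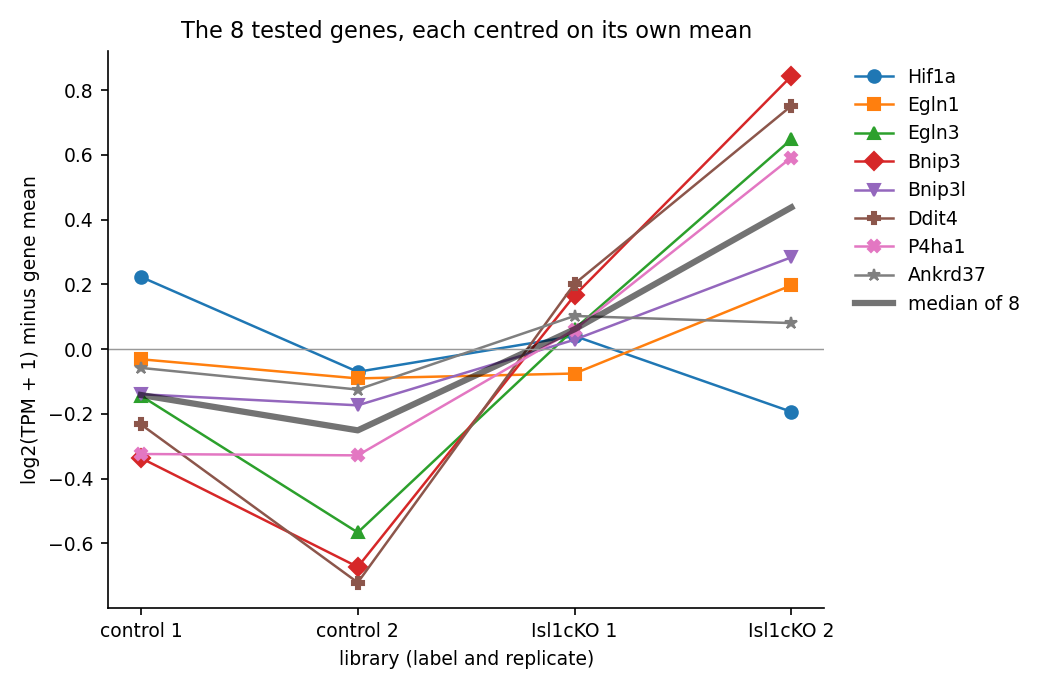
log2(TPM + 1) of the 8 tested genes minus each gene's mean over the 4 libraries (vertical axis), by library (horizontal axis). The thick line is the median of the 8, which runs from -0.25 in control replicate 2 to 0.44 in Isl1cKO replicate 2, and Hif1a runs against it.

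Distances within each label were wide for some genes. In 5 of the 6 genes whose groups did not overlap, all but Ankrd37, the 2 knockout-labelled libraries lay further apart on the log2 scale than the nearest libraries of the 2 groups. For Bnip3 the distance within Isl1cKO was 0.68 and the gap between groups 0.50. For P4ha1 they were 0.53 and 0.38. In 2 of the 6 the controls also lay further apart than the groups, by 0.49 against 0.43 for Ddit4 and by 0.42 against 0.21 for Egln3. Without Isl1cKO replicate 2 the log2 fold changes were 0.67 for Bnip3, 0.68 for Ddit4, 0.42 for Egln3, 0.39 for P4ha1 and 0.19 for Bnip3l. Without Isl1cKO replicate 1 the same 5 values were 1.35, 1.23, 1.0, 0.92 and 0.44. Egln1 went from 0.12 to -0.01 without Isl1cKO replicate 2.

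**Figure D4:**
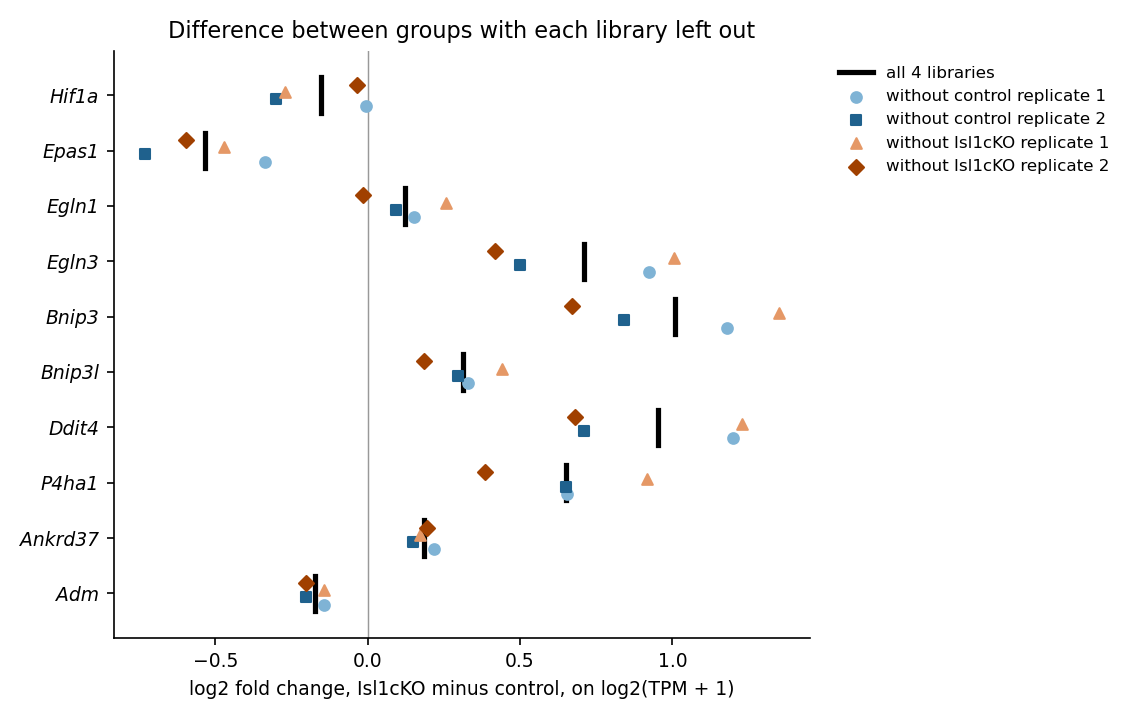
log2 fold change of knockout-labelled libraries against control (horizontal axis) for each of the 10 genes, with all 4 libraries (black bar) and with each library left out (symbols). For Bnip3 the value is 1.01 with all libraries and ranges from 0.67 without Isl1cKO replicate 2 to 1.35 without Isl1cKO replicate 1.

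Over the 8 tested genes the median log2 fold change was 0.48 (0.29 without Isl1cKO replicate 2, and 0.25 over all 10 genes), against -0.05 over all tested genes, and 7 of the 8 were above 0, as 36.2% of all tested genes were. Summed over the 10 genes, 563 and 486 TPM in the controls stood against 615 and 746 TPM in the knockout-labelled libraries. Other lists moved with this sum: microglial markers summed to 53.1 and 52.7 TPM in the controls and to 65.9 and 76.8 TPM in Isl1cKO replicates 1 and 2. The sum of ganglion cell markers ran the other way, with 4021 and 3445 TPM in the controls and 2240 and 1540 TPM in Isl1cKO replicates 1 and 2. That list includes Isl1, which overlapped between the groups, and limma called 0 of its 12 genes (0.493% over all tested genes). The retinal markers summed to 3668 and 3870 TPM in the controls and to 4073 and 4690 TPM in the knockout-labelled libraries. Lens markers summed to 183 and 226 TPM in the controls, against 5.54 and 3.78 TPM in Isl1cKO replicates 1 and 2. Of their 7 tested genes, limma called 5 (0.493% over all tested genes). Pigment epithelium markers summed to 45.8 and 38.8 TPM in the controls, against 36.9 and 27.7 TPM in Isl1cKO replicates 1 and 2. Those of periocular mesenchyme summed to 26.3 and 19.2 TPM, against 18.2 and 14.5 TPM, so both lists were lower in both knockout-labelled libraries. Immediate early genes were lower in both as well, with 148 and 142 TPM in the controls, against 124 and 125 TPM, and pericyte markers higher, with 43.9 and 43.3 TPM in the controls, against 46.7 and 48.7 TPM. The part of these cell types, and of red cells, in the hypoxia gene values was not tested.

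The machinery around the factors lay close to the median of all tested genes. Of 14 HIF pathway regulators, among them the partners Arnt and Arnt2, the ubiquitin ligase parts Vhl, Elob, Eloc, Cul2 and Rbx1, and the asparagine hydroxylase Hif1an, all were tested and limma called 0 at an adjusted p-value under 0.05 (0.493% over all tested genes). None had an unadjusted p-value under 0.05. Their log2 fold changes lay between -0.17 and 0.22 with a median of -0.09 (-0.05 without Isl1cKO replicate 2), and 12 of 14 were below 0, as 63.8% of all tested genes were. Both knockout-labelled libraries lay below both controls in 7 of the 14 (30.0% of all tested genes) and above them in 1. Hif3a, an alpha subunit that can also restrain the other HIFs, stood highest of the 14 at 0.22, with 4.99 and 4.89 TPM in the controls and 5.67 and 6.22 TPM in the knockout-labelled libraries (adjusted p-value 0.421 in limma). Rbx1 had a log2 fold change of -0.17 (adjusted p-value 0.535 in limma) and Egln2, the remaining EGLN hydroxylase, one of -0.14 (adjusted p-value 0.557 in limma). Vhl lay at 40.2 and 43.2 TPM in the controls, against 40.2 and 41.7 TPM in the knockout-labelled libraries.

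Other non-metabolic hypoxia targets were mixed. Of 27 genes listed, 23 were tested, and limma called 0, against 7 with an unadjusted p-value under 0.05 (12.1% over all tested genes), of which 5 were higher and 2 lower. Their median log2 fold change was 0.14, with 0.0859 when Isl1cKO replicate 2 was left out and 0.23 when replicate 1 was. Of the 23, 17 were above 0 (36.2% over all tested genes). Both knockout-labelled libraries lay above both controls in 11 (14.9%) and below them in 2 (30.0%). The order of libraries seen for Bnip3 was found in 7 of 23 (3.91%). The list was chosen with earlier results of these data known, so nothing is read from these shares. The furthest value was a lower one: Vldlr, a receptor for lipoproteins and reelin, stood at 22.0 and 15.5 TPM in the controls, against 8.15 and 6.56 TPM in the knockout-labelled libraries (log2 fold change -1.23, adjusted p-value 0.146 in limma). Epo, the red cell growth factor, was present at 3.42 and 4.40 TPM in the controls, against 4.82 and 10.2 TPM in the knockout-labelled libraries (log2 fold change 0.72, adjusted p-value 0.495 in limma). Stc2, a secreted glycoprotein, stood at 6.51 and 5.52 TPM in the controls, against 7.76 and 12.7 TPM in the knockout-labelled libraries (log2 fold change 0.64, adjusted p-value 0.404 in limma). As for Bnip3, the distance between Isl1cKO replicates was wide for Epo and Stc2. The angiogenic factor Vegfa, by contrast, stood at 166 and 167 TPM in the knockout-labelled libraries against 125 and 115 TPM in the controls (log2 fold change 0.47, adjusted p-value 0.171 in limma), so that its gap between the groups was wider than that within either.

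Metabolic hypoxia targets showed the order of Bnip3 almost throughout. In 15 of 16 glycolysis and pyruvate genes the libraries ranked as for Bnip3, the exception being Pfkp, against 3.91% of all tested genes. Their median log2 fold change was 0.59 (0.34 without Isl1cKO replicate 2), and limma called 0 of 16, against 11 with an unadjusted p-value under 0.05 (12.1% over all tested genes). The largest were Slc16a3, a lactate exporter, at 1.21, Pdk1, a pyruvate dehydrogenase kinase, at 1.15, and Aldoa, a glycolytic enzyme, at 0.88. Their adjusted p-values in limma were 0.352, 0.264 and 0.312. This list, like that of the regulators, was also chosen with earlier results known. Nothing is read from the shares of either.

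**Figure D5:**
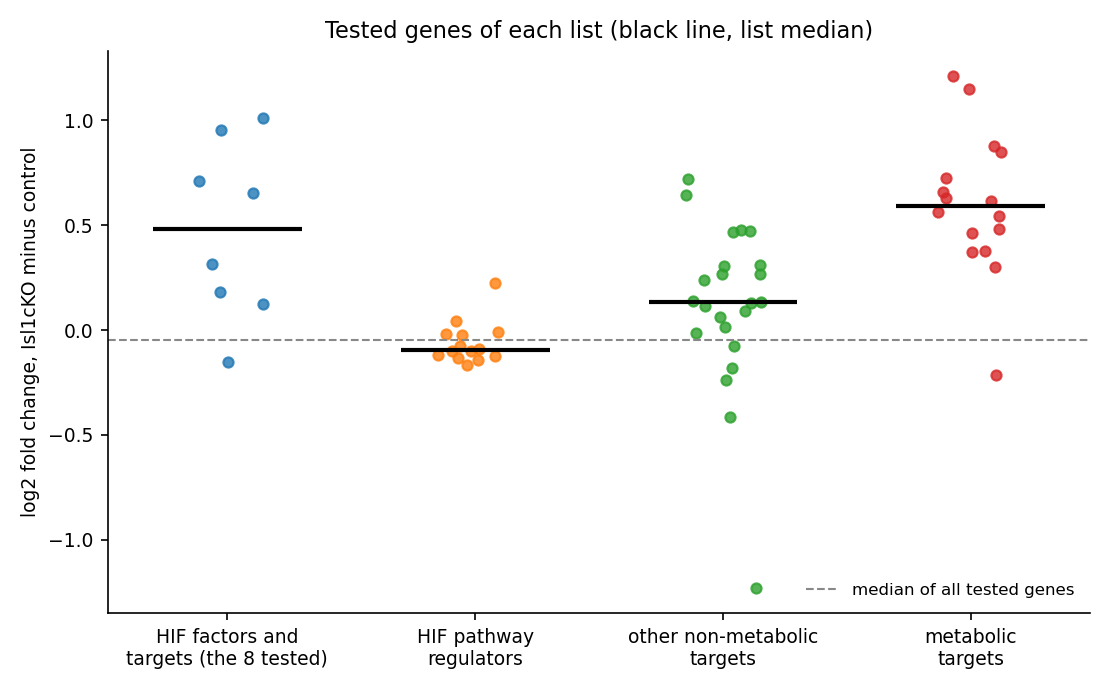
log2 fold change of knockout-labelled libraries against control (vertical axis) for the tested genes of 4 lists, with the list medians as black lines and the median of all tested genes, -0.05, dashed. The 14 regulators lie between -0.17 and 0.22, whereas the median is 0.48 for the 8 HIF factors and targets and 0.59 for the 16 metabolic targets.

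Genes with a profile most like the median of the 8 were sought among 9901 other tested genes with a mean of at least 10 TPM, by the Euclidean distance between centred log2(TPM + 1) profiles over the 4 libraries. The nearest 5 were Cldn1 (0.0661), Fam162a (0.0803), Loxl2 (0.0805), Gja1 (0.0889) and Hook2 (0.0896). Fam162a, a mitochondrial protein, and Loxl2, a collagen cross-linking oxidase, were also on the list of other hypoxia targets. Cldn1, a tight junction claudin, stood at 18.5 and 17.7 TPM in the controls, against 21.9 and 28.3 TPM in the knockout-labelled libraries. With 4 libraries this likeness is a description of the profiles. Among the 8 themselves, Bnip3l lay nearest to their median at a distance of 0.175 and Hif1a furthest at 0.752.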

How the data were processed

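RNA of 4 retina libraries at embryonic day 13.5, 2 labelled control and 2 labelled Isl1cKO, was sequenced after poly(A) selection with a strand-specific kit, per the labels' protocols. The submitters' processing notes name Trimmomatic, FastQC, HISAT2, SAMtools, StringTie, DESeq2 and the build mm10, with no version, role or order. Each library has its own table. The authors deposited TPM, which sum to 1000000 per library, FPKM, used here in an alternative only, and mean coverage per base, used here only to derive depth. Depth in reads is unknown, and no counts or counting intervals could be used. With TPM, a gain of some abundant RNAs lowers all others.

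TPM were summed per gene ID. The values log2(TPM + 1) of 13984 genes with at least 1 TPM in at least 2 libraries were fitted by genotype alone in limma 3.58.1 (R 4.3.3), with a constant variance prior and Benjamini-Hochberg adjustment over all tested genes, at a threshold of 0.05. The pseudocount understates changes of low genes. The model was tested on simulated data. The 10 genes, the gene lists and the tests were chosen with earlier results of these data known. The genes named were Isl1, the 10 genes, in each pathway list those called or otherwise the 3 with the largest absolute change, and the 5 most alike in profile. Other genes were named after their values were seen. Positions of all 10 genes overlapped those of RefSeq on GRCm38.p6. Protein sequences were not analysed here. Alternatives were median-ratio scaling, no filter, a pseudocount of 0.1, FPKM, a replicate block, a mean-variance trend and leaving out each library.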

Additional observations from a re-analysis of the deposited data

How the results depend on the processing

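The count of 69 called genes was 15 with no filter, 44 at a pseudocount of 0.1, 109 with FPKM and 110 with a mean-variance trend, and ranged from 10 without control replicate 1 to 37 without Isl1cKO replicate 1 with each library left out. With 1 library left in a group, its spread is assumed to be that of the other group. None of the 10 genes was called under any of these. With the replicate block 265 genes were called, again with none of the 10. Same-numbered libraries deviated together at a correlation of 0.126, but with only 2 pairs, and no word on litters or days in the labels, they were taken to share only a number. The cause of these changes was not tested, except that no filter tests more genes.

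The median log2 fold change of the 8 tested genes, 0.48, was 0.25 with no filter, which adds Epas1 and Adm. It ranged from 0.29 without Isl1cKO replicate 2 to 0.68 without Isl1cKO replicate 1. The regulator median of -0.09 was -0.0429 under median-ratio scaling and -0.0434 with FPKM, which move the median of all genes by 0.05 or less, and ranged from -0.0843 to -0.0496 with each library left out. The median of other targets ranged from 0.0859 to 0.23 and that of metabolic targets from 0.34 to 0.86, lowest without Isl1cKO replicate 2 in both. The order of libraries shared by 5 genes was found for 5 under scaling, no filter and FPKM. The count of 6 genes with the groups apart cannot fall when a library is left out. It was then 6 or 7, while the share of all tested genes went from 14.9% to as much as 32.8%, an alternative chosen after seeing the data. Of 64 values of single genes under alternatives that can move a fold change, 1 changed sign (Egln1 without Isl1cKO replicate 2).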

Other observations

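Ddit4l, a paralog of Ddit4 that also restrains mTORC1, was looked up after its values were seen. The controls held 6.39 and 6.94 TPM of it, against 8.41 and 9.18 TPM in replicates 1 and 2 labelled Isl1cKO, so both labelled Isl1cKO libraries lay above both controls, as in Ddit4, but the controls ranked the other way. Adm2, a paralog of Adm, was also low, with 0.262 TPM or less in every library.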
